A study of Mus musculus with 2 samples.

Results

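Osr2+ Unc5cl+ cells are kidney epithelial cells in which RNA of Osr2 and of Unc5cl was counted together. A barcode belonged to the group with at least 2 unique molecular identifiers (UMIs, each standing for 1 captured RNA molecule) of Osr2, at least 1 of Unc5cl, under 2 UMIs per 10000 of Slc12a1, the transporter of the loop of Henle, and 0 of Pecam1, an endothelial gene. The rule took 350 of 9227 kept barcodes, or 3.79%. Levels of these 4 genes chose the cells and are given only as a description. Single cells of newborn mouse kidney (postnatal day 0, tissue labelled as embryonic kidney) were profiled in 2 droplet libraries with 3′ chemistry. The library labelled Flcn WT came, per the design text, from Six2Cre; Flcn flox/+ kidneys and the library labelled Flcn KO from Six2Cre; Flcn flox/flox kidneys, so both carried Cre and the first kept 1 unfloxed allele. Six2-Cre acts in nephron progenitors, and their descendants are the nephron epithelium, whereas stroma, vessels and collecting duct arise from other cells. How many animals went into a library is not stated in the labels. With 1 library per group no difference has a replicate check and no test across samples could be made. Every interval printed for a share or a ratio covers counting error only.

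The nephron forms when Six2-positive progenitors turn into an epithelial vesicle, which bends into an S-shaped body whose segments become podocytes, proximal tubule, loop of Henle and distal tubule. Osr2 encodes a zinc-finger transcription factor of the odd-skipped family, and its relative Osr1 acts earlier, in kidney progenitors. Unc5cl encodes a membrane protein with a death domain that resembles the netrin receptors of the UNC5 family. Flcn encodes folliculin, which works at the lysosome with FNIP1 and FNIP2 and keeps the transcription factors TFEB and TFE3 out of the nucleus.

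The WT library held 215 of these cells and the KO library 135. Their median depth was 54197 UMIs in WT and 66584 in KO, against 21340 and 18803.5 for all kept barcodes. Proximal tubule cells outside the group, by the rule given below, had medians of 37527.5 and 43091. Vesicle and S-shaped body cells had 39747 and 36245.5. The gate is set in UMIs, and its part in the depth of the group was not tested. The summed nuclear-encoded UMIs were 14238070 and 9028052, and all levels below are CPM of these sums (UMIs of a gene scaled to a fixed common total, so that libraries can be compared). Of the deposited barcodes 5 occurred in both libraries, and 0 of them were in the group. Flcn itself had 285 WT and 133 KO UMIs in these cells, or 20.02 and 14.7 CPM (ratio of KO over WT 0.736, 95% interval 0.594 to 0.907). These counts come from the 3′ end, and the labels do not name the deleted exons, so they do not check the deletion.

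The label of an immature nephron cell was set against marker rules. The rule for proximal tubule (2 UMIs each of Slc34a1, a phosphate transporter, and Lrp2, the endocytic receptor megalin) was met by 89.3% of the group in WT, or 192 cells (exact Clopper-Pearson interval 84.4 to 93.1%), and by 88.1% in KO, or 119 cells (81.5 to 93.1%). The rule for vesicles and S-shaped bodies (Lhx1 and the Notch ligand Dll1) was met by 59 WT cells (27.4%) and 38 KO cells (28.1%), and both rules by 50 and 31. The rule for ureteric and collecting duct cells was met by 13 WT cells (6.05%) and 6 KO cells (4.44%), the stroma rule by 4 cells in each library, and the endothelial rule by 0 of 215 and 0 of 135, which the gate on Pecam1 favours. The group thus held mostly cells that already carried proximal tubule transcripts, and it is called here by its rule.

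At the edges of the rule, the 39 WT cells with exactly 2 Osr2 UMIs had 140 CPM of Grid1, and the 30 WT cells just outside, with 1 Osr2 UMI, had 166 CPM. In KO the 8 cells just inside had 281 CPM and the 22 cells just outside 113 CPM. Cells with 1 Unc5cl UMI had 222 CPM of Grid1 in WT and 279 CPM in KO, and cells with enough Osr2 but 0 Unc5cl UMIs had 102 and 130 CPM. The proximal tubule rule was met by 87.1% and 80.4% of the cells with 1 Unc5cl UMI. Among the cells with 0 it was met by 31.7% and 34.0%. The part of this unlike make-up in the Grid1 difference was not tested. The Pecam1 limit set aside 29 WT and 17 KO cells, and the Slc12a1 limit 2 and 1. Of the cells set aside by Pecam1, 82.8% in WT and 76.5% in KO met the proximal tubule rule. Their Grid1 was at 341 and 430 CPM and their median depth 104485 and 81489 UMIs.

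Osr2 stood at 233 CPM in WT and 187 CPM in KO cells of the group, with vesicle and S-shaped body cells next at 148 and 112 CPM and other proximal tubule cells at 65.2 and 74.6 CPM. Unc5cl stood at 67.9 and 44.5 CPM, with other proximal tubule cells next at 10.2 and 7.60 CPM. Grid1, a delta-type glutamate receptor subunit that the rule did not use, reached 343 CPM in WT and 377 CPM in KO, against 97.4 and 145 CPM in other proximal tubule cells, 99.8 and 109 CPM in vesicle and S-shaped body cells, and 22.8 and 19.5 CPM in progenitors. Its next class was thus vesicle and S-shaped body cells in WT and other proximal tubule cells in KO. Stxbp5l, a syntaxin-binding protein of the tomosyn family, was at 142 and 134 CPM, against 53.8 and 68.3 CPM in other proximal tubule cells and 66.5 and 78.4 CPM in vesicle and S-shaped body cells. In stroma Grid1 was at 7.42 and 6.30 CPM and Stxbp5l at 2.24 and 2.54 CPM. Grid1 and Stxbp5l were listed as markers of the group with earlier results of these data known, so their levels are a description too. Osr1 was near absent, at 10 WT and 6 KO UMIs over all cells of the group.

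**Figure D1:**
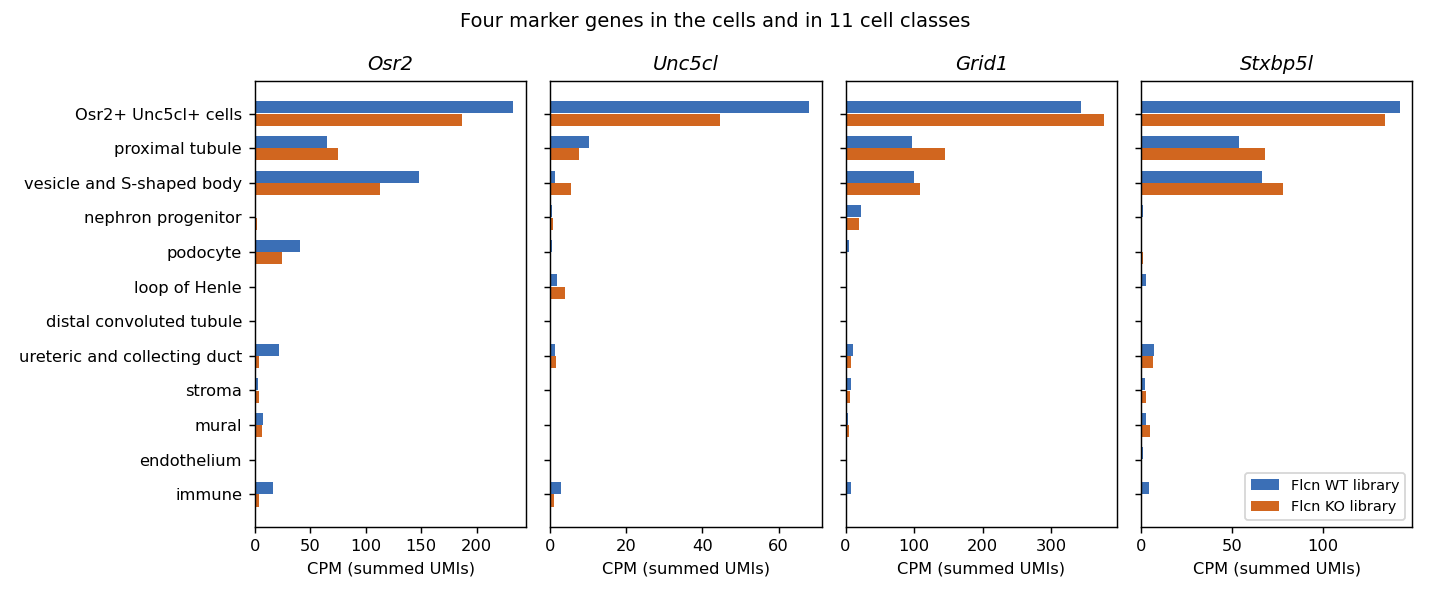
Bars give the level (CPM of summed UMIs, linear axes from 0) of Osr2, Unc5cl, Grid1 and Stxbp5l in Osr2+ Unc5cl+ cells and in 11 classes chosen by marker UMIs, for each library. The group has the longest bar in every panel, by rule for Osr2 and Unc5cl, and Grid1 reaches 343 CPM in WT and 377 CPM in KO.

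Of 6828 genes with enough counts, 156 were higher in the group than in each of the 11 classes in both libraries, and 3 of them at least 2-fold. Those 3 were Unc5cl, which is high by rule, Grid1, already listed as a marker of the group, and Dmd. Dmd, the gene of dystrophin, was at 732 CPM in WT and 666 CPM in KO. In vesicle and S-shaped body cells it was at 266 and 302 CPM. Phgdh, the first enzyme of serine synthesis, was at 605 and 597 CPM, and its next class was progenitors at 356 CPM in WT and proximal tubule at 346 CPM in KO. Gpc5, a glypican, was at 2470 and 1993 CPM against 1406 and 1216 CPM in progenitors. Lgr4, a receptor for R-spondins, was at 1189 and 1251 CPM against 812 and 821 CPM in other proximal tubule cells. The list also named Adamts6 and Adamts16, both secreted metalloproteases, the amino acid transporter Slc6a15 and the growth factor receptor Fgfr4. These are differences between groups cut by marker counts and carry no test.

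By list medians, the group lay between vesicle and S-shaped body cells and the other proximal tubule cells in both libraries on 18 of 38 gene lists, in 1 library on 14, and in neither on 6. It was above both classes in both libraries for 4 of these 6, the stroma, epithelial junction, cilium and immediate early lists. It was below both for the endothelial list, which holds Pecam1, so the gate on Pecam1 favours that place. Positions rest on the sign of the medians only. Against other proximal tubule cells in KO the median log2 difference was 0.0015 for junction, 0.012 for progenitor and 0.033 for ureteric genes, so these were about level. Stroma genes had median log2 differences of 1.26 in WT and 0.57 in KO against other proximal tubule cells, and cilium genes 0.51 and 0.35. Lists of proximal tubule, cell cycle and signalling genes were among the 18. The comparison classes left out barcodes that met more than 1 rule. The group kept its 50 WT and 31 KO cells that met both the proximal tubule and the vesicle rule. The part of this unequal exclusion in the group's place between the classes was not tested. Of 20 genes of the mature proximal tubule, 18 were lower than in other proximal tubule cells in both libraries and 20 were higher than in vesicle and S-shaped body cells. Early proximal genes such as Hnf4a, Lrp2 and Cubn were higher than in vesicle and S-shaped body cells for 12 of 12. Slc34a1, in the mature list, and Lrp2, in the early list, define the proximal tubule class. Lhx1 and Dll1, in the vesicle list, define the vesicle class. The places of these genes are thus partly set by the class rules. All 24 mitosis genes were higher than in other proximal tubule cells in both libraries (median log2 difference 2.96 in WT and 2.16 in KO) and lower than in vesicle and S-shaped body cells (-1.58 and -2.30). Notch pathway genes were higher than in other proximal tubule cells for 16 of 18 and lower than in vesicle and S-shaped body cells for 17 of 18. Wnt pathway genes were higher than in other proximal tubule cells for 29 of 32. All 28 genes of oxidative phosphorylation, the respiratory chain that adult proximal tubule relies on, were lower than in other proximal tubule cells and higher than in vesicle and S-shaped body cells.

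Cycling was counted after thinning each cell to 3000 UMIs, as cells holding 2 or more UMIs summed across mitosis genes. In the group 22.8% met this in WT (49 cells, interval 17.4 to 29.0%) and 19.3% in KO (26 cells, 13.0 to 26.9%). Other proximal tubule cells met it for 1.72% in WT and 4.07% in KO, and vesicle and S-shaped body cells for 73.1% and 71.0%. Without thinning the shares were 70.7% and 76.3% in the group, 33.3% and 54.7% in other proximal tubule cells, and 96.8% and 96.0% in vesicle and S-shaped body cells.

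Within the group, single cells spread over a wide range of maturity. The summed level of 19 mature proximal genes (the list without Slc34a1) ran from 0.132 to 466 UMIs per 10000 in WT, with a median of 48.5, and from 0 to 153 in KO, with a median of 35.5. Other proximal tubule cells had medians of 152 and 74.1, and vesicle and S-shaped body cells 0.415 and 0.466. Across cells of the group thinned to a common depth, the mature list ran against the vesicle list (Spearman's rho -0.78 over 214 WT cells and -0.84 over 133 KO cells) and along with the lysosomal list (0.89 and 0.82). These are descriptions across cells of 1 library each.

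All proximal tubule cells and the group were then cut into 4 bins at the quartiles of this mature sum (27.2, 75.7 and 135 UMIs per 10000). In WT the group made up 56.3%, 54.1%, 33.9% and 18.2% of the cells from the least to the most mature bin, and in KO 48.3%, 26.7%, 23.4% and 7.14%, the last being 2 of 28 cells. Over all cells of a bin Osr2 went from 247 to 179, 89.0 and 57.4 CPM in WT, and from 233 to 81.9, 65.8 and 31.1 CPM in KO. Grid1 went from 384 to 362, 134 and 53.7 CPM in WT, and from 522 to 201, 98.8 and 32.9 CPM in KO. Since cells entered the group by their Osr2 UMIs and the group was a larger share of the less mature bins, the order of Osr2 over the bins is partly set by the rule and is a description only. Grid1 was not in the rule, but it was higher in the group than in other proximal tubule cells, and the part of the group's share in its order was not tested. The mature list is itself lower in the KO library, so equal bins need not hold cells of equal age.

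**Figure D2:**
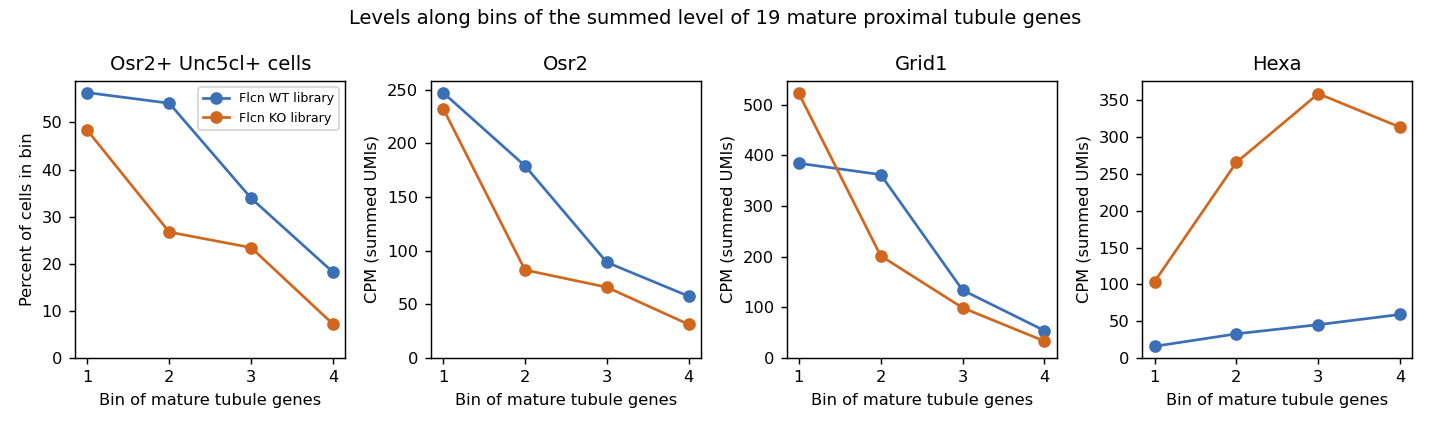
Points give, for 4 bins of rising mature proximal tubule sum (bin 1 least mature), the percent of cells in the group and the CPM of Osr2, Grid1 and Hexa over all proximal tubule and Osr2+ Unc5cl+ cells of the bin, per library. Osr2 falls from 247 to 57.4 CPM in WT and from 233 to 31.1 CPM in KO, while Hexa is higher in KO in each bin.

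The first comparison of the libraries asked how many such cells each held. They were 5.13% of 4187 kept WT barcodes (4.49 to 5.85%) and 2.68% of 5040 KO barcodes (2.25 to 3.16%). Of the cells that met the proximal tubule rule, 33.9% in WT and 27.5% in KO belonged to the group. Of those that met the vesicle rule, 22.0% and 18.9% did. After thinning every barcode to 10000 UMIs, 50 WT and 25 KO cells still met the gate, 1.37% and 0.570% of barcodes deep enough. Shares describe what each dissociation recovered.

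The main comparison set the KO cells of the group against the WT cells. Of 7952 genes with at least 50 UMIs and 20 CPM in 1 library, 4.38% (348 genes) had a KO level 1.5-fold or more above WT and 5.19% (413 genes) 1.5-fold or more below, with a median log2 ratio of -0.04. At 2-fold the counts were 106 and 131. Among all 17952 genes with 10 UMIs, the base for the lists below, 8.48% were at least 1.5-fold higher and 16.0% at least 1.5-fold lower.

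The 12 genes with the highest ratios held lysosomal, prostaglandin and injury genes. Hexa, a subunit of the lysosomal enzyme hexosaminidase, had 490 WT UMIs (34.4 CPM) and 1978 KO UMIs (219 CPM), a ratio of 6.37 (5.76 to 7.04). It was detected in 74.4% of WT and 93.3% of KO cells, and its ratio was 6.20 in other proximal tubule cells, 2.89 in vesicle and S-shaped body cells and 0.998 in stroma. Ptgds, a prostaglandin D synthase, was at 16.2 CPM in WT and 182 CPM in KO (ratio 11.2, 9.79 to 13.0), and Hpgds, the haematopoietic form of that enzyme, at 9.76 and 66.6 CPM (6.82, 5.66 to 8.26). Both were also higher in KO in other proximal tubule cells, at 13.0 and 10.8.

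Nupr1, a stress-response regulator, had 49 WT and 368 KO UMIs (11.8, 8.77 to 16.3), and 1 WT cell held 44.9% of the WT UMIs. Havcr1, the kidney injury molecule KIM-1, had 30 WT and 194 KO UMIs (10.2, 6.92 to 15.5). Lgals3bp, a secreted galectin-binding protein, was at 2.32 and 26.8 CPM (11.6, 8.02 to 17.2), and the complement gene C3 at 3.79 and 29.6 CPM (7.80, 5.80 to 10.7). Cd74 and H2-Aa, of the MHC class II pathway, were at 9.62 and 83.2 CPM (8.65, 7.20 to 10.4) and at 2.95 and 22.8 CPM (7.74, 5.53 to 11.1). The remaining 3 of the 12, Aoc1, a diamine oxidase, Lgals1, galectin-1, and Cldn4, a tight-junction claudin, were at 44.1, 89.6 and 20.6 CPM in KO against 5.06, 12.6 and 2.46 CPM in WT. For these 3 the direction turned around among the cells that met the gate after thinning (50 WT and 25 KO). Their log2 ratios there were -3.75, -1.39 and -2.53. UMIs in that setting are not given here, so these values may rest on few UMIs. In the main setting Cldn4 had 34.3% of its WT UMIs and 28.5% of its KO UMIs in 1 cell each. The log2 ratios of the other 9 were lower after thinning while staying above 0. Ptgds went from 3.49 to 0.51 on the log2 scale, Lgals3bp from 3.51 to 0.64, Cd74 from 3.11 to 1.15 and Havcr1 from 3.33 to 1.37. Nupr1 went from 3.55 to 1.86, C3 from 2.95 to 1.37, H2-Aa from 2.94 to 1.68, Hpgds from 2.77 to 1.99 and Hexa from 2.67 to 2.08. Havcr1, C3 and Osr1 shared the value 1.37472, which equal UMI counts in both libraries give because the totals differ. For Havcr1 and C3 it thus shows no excess of KO UMIs, and Ptgds, Lgals3bp and Cd74 lie below it.

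Leukocyte genes were counted beside Cd74 and H2-Aa. Of 8 immune genes with 10 UMIs, 7 were higher in KO and 1 lower, 3 of them at least 1.5-fold higher and 0 lower, with a median log2 ratio of 0.46. The 3 were Lyz2, with 4 WT and 10 KO UMIs, S100a8, with 10 and 10, and S100a9, with 13 and 13, over unequal totals. The macrophage gene Cd68 was at 10.1 and 14.1 CPM (ratio 1.39, 1.09 to 1.78). The defining leukocyte gene Ptprc had 16 WT and 13 KO UMIs, Tyrobp 7 and 5, and C1qa 2 and 1, and the summed immune list was at 62.4 and 65.0 CPM, of which Csf1r, the 1 gene lower, gave 47.0 and 42.5. The part of leukocyte RNA in the Cd74 and H2-Aa difference was not tested. In stroma Cd74 was at 0.626 and 0.893 CPM.

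**Figure D3:**
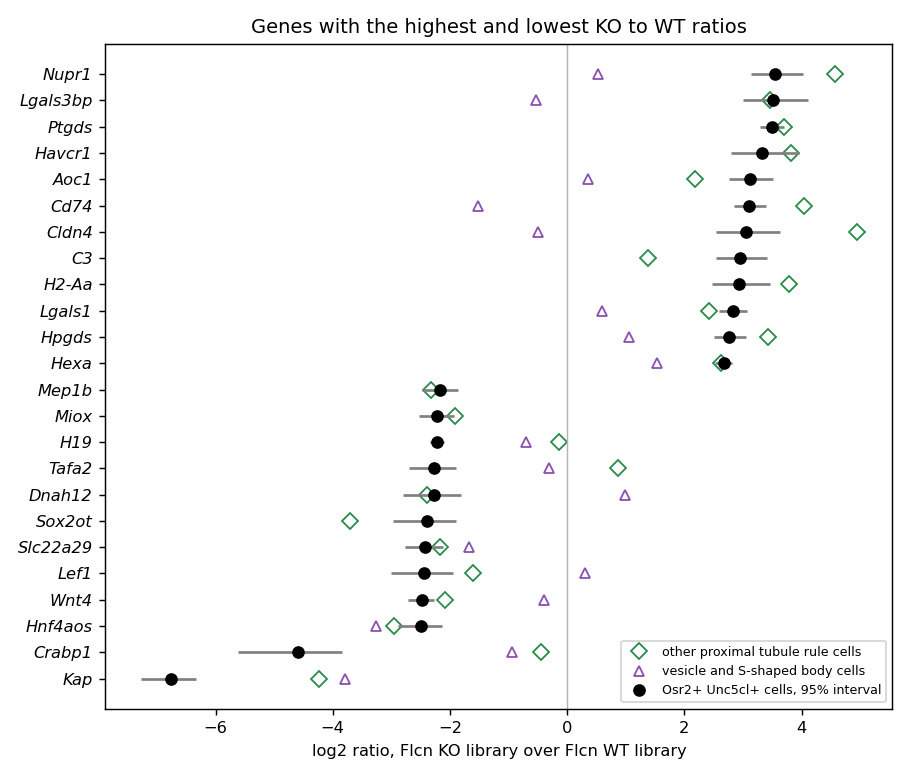
Each row is 1 of the 12 genes with the highest or the 12 with the lowest ratio of KO over WT in Osr2+ Unc5cl+ cells. Filled points with 95% counting intervals are the group, diamonds other proximal tubule cells, and triangles vesicle and S-shaped body cells with at least 10 UMIs, on a log2 scale. Hexa and Ptgds lie near the same ratio in the group and in other proximal tubule cells, and H19 and Crabp1 lie apart.

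The lowest ratio was that of Kap, the androgen-regulated kidney protein of proximal tubule, with 6947 WT UMIs (488 CPM) and 40 KO UMIs (4.43 CPM), a ratio of 0.00908 (0.00648 to 0.0124). It was detected in 33.5% of WT and 5.19% of KO cells, and 1 WT cell held 27.8% of the WT UMIs. Its log2 ratio was -6.77, and -2.16 among the cells that met the gate after thinning. In other proximal tubule cells it was at 2859 and 151 CPM, and in stroma at 4.65 and 0.987 CPM. Its WT UMIs lay mostly in the most mature bin, 5412 of 6947, where KO had 2 cells and 0 UMIs. Kap is among the 19 genes whose sum set the bins, so its place there is partly set by the binning and is a description only. Xist was at 1025 CPM in WT and 871 CPM in KO cells of the group.

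Crabp1, a retinoic acid binding protein, had 478 WT and 12 KO UMIs (ratio 0.0396, 0.0203 to 0.0698), against a ratio of 0.732 in other proximal tubule cells. Its log2 ratio went from -4.60 to -1.68 among the cells that met the gate after thinning, and to -3.12 with 1 Osr2 UMI as the limit. H19, an imprinted fetal RNA, was at 362 and 77.5 CPM (0.214, 0.198 to 0.232), against 163 and 149 CPM in other proximal tubule cells. Wnt4, the signal that turns progenitors into epithelium, was at 118 and 21.0 CPM (0.179, 0.153 to 0.208), and Lef1, a Wnt effector, at 21.4 and 3.88 CPM (0.182, 0.124 to 0.258). In vesicle and S-shaped body cells Wnt4 was at 864 and 661 CPM and Lef1 at 254 and 315 CPM. Miox, Mep1b and Slc22a29, all proximal tubule genes, had ratios of 0.214, 0.223 and 0.185, and the RNA Hnf4aos 0.177. Sox2ot and Dnah12 had ratios of 0.187 and 0.204. With the gate after thinning the log2 ratio of Sox2ot went from -2.40 to -0.21, so that it no longer passed 1.5-fold, and that of Lef1 from -2.44 to -0.95, while Slc22a29 and Dnah12 went further down, to -3.42 and -3.83. Tafa2, at 0.205, had 26.7% of its WT UMIs in 1 cell, and its log2 ratio was 0.28 among the cells that met the gate after thinning. Hnf4aos overlaps its sense partner Hnf4a, and without stated strand use its reads may be shared.

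Lysosomal genes were higher in KO as a group. Of 41 lysosomal hydrolase and membrane genes with 10 UMIs, 21 were at least 1.5-fold higher and 1 lower, with a median log2 ratio of 0.60 against -0.08 over all genes with 10 UMIs. The list median was 0.46 in other proximal tubule cells, 0.43 in vesicle and S-shaped body cells and 0.00 in stroma. Dpp7, a lysosomal dipeptidase, was at 22.4 and 82.2 CPM (ratio 3.67, 3.21 to 4.20). Grn and Psap, precursors of granulins and saposins, were at 84.0 and 221 CPM (2.63) and at 196 and 505 CPM (2.58), and the sulfatase Arsa at 4.42 and 13.6 CPM (3.08). The 1 gene lower was Ctsh, at 143 and 94.8 CPM (0.664). Within the 4 maturity bins the list median was 0.78, 0.81, 0.80 and 0.74, the last with 2 KO cells.

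Of 19 known TFEB and TFE3 targets, a list that shares genes such as Ctsd, Hexa, Mcoln1 and Neu1 with the lysosomal one, 11 were at least 1.5-fold higher and 0 lower (median 0.65). Gpnmb, a lysosomal glycoprotein, had 1 WT and 107 KO UMIs (ratio 169, 29.6 to 6727). Rragd, a small GTPase of the nutrient-sensing Rag complex, was at 19.7 and 89.3 CPM (4.54, 3.96 to 5.22), Amdhd2 at 22.4 and 52.7 CPM (2.35) and the protease gene Ctsd at 181 and 416 CPM (2.29). The folliculin partners Fnip1 and Fnip2 had ratios of 1.52 (1.42 to 1.62) and 1.41 (1.31 to 1.51). Of the factors themselves, Tfeb had a ratio of 0.948 (0.792 to 1.13), Tfe3 1.13 (0.952 to 1.34) and Mitf 0.872 (0.801 to 0.948). Of 16 subunits of the vacuolar ATPase, the proton pump of lysosomes, 6 were at least 1.5-fold higher and 0 lower (median 0.54), with Atp6v0b at 256 and 505 CPM (1.97) and Atp6v0c at 563 and 996 CPM (1.77). Autophagy genes had a median of 0.14 (0.016 with the gate after thinning), with 5 of 25 higher, among them Optn (2.29) and Gabarapl1 (1.70), and 1 lower, Atg9a. Apoe, a lipid carrier, was at 270 and 1406 CPM (5.21, 5.03 to 5.41).

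The promoters of 4 genes of the lysosomal and TFEB lists are shown because they hold the 8 letters TCACGTGA, a form of the site that TFEB and TFE3 recognise. Other genes of these lists with the same letters, Ctsa, Gla and Mcoln1, are not shown. The level of Clcn7 is not given here. Windows of 300 bases (250 before to 50 after the start of the gene) are from RefSeq on GRCm38.p6, at Dpp7 chr2:25356283-25356582 (minus strand), Ctsd chr7:142387778-142388077 (minus strand), Clcn7 chr17:25133141-25133440 (plus strand), Amdhd2 chr17:24163684-24163983 (minus strand), read 5′ to 3′ along the gene with TCACGTGA in capitals.
Dpp7: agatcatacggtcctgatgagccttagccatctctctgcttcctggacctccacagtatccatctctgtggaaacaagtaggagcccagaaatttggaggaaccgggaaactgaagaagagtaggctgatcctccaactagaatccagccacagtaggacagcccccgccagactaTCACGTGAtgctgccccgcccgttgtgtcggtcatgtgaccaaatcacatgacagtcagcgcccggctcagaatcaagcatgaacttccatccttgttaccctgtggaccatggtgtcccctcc
Ctsd: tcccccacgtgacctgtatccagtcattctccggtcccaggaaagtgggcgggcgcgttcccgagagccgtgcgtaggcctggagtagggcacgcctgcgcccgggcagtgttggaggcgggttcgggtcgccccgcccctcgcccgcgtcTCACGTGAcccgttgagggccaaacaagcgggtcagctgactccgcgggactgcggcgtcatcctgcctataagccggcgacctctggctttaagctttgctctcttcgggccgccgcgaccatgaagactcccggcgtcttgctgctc
Clcn7: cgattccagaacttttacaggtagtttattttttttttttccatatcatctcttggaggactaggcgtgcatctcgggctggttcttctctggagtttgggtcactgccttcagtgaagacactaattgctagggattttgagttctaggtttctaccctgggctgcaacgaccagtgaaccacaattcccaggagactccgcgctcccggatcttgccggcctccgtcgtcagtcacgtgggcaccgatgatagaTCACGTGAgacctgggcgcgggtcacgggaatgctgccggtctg
Amdhd2: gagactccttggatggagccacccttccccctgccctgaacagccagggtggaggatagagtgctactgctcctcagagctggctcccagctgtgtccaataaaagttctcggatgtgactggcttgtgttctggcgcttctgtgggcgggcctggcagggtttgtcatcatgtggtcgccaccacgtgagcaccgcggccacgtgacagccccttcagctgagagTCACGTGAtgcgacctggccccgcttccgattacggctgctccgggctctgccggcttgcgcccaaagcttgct
TCACGTGA reads the same on both strands and contains CACGTG. It occurs in 0.974% of all 32851 promoter windows, in 6 of 35 lysosomal genes with a window, in 3 of 16 TFEB and TFE3 targets (Amdhd2, Ctsd and Mcoln1), and in 3 of 11 ATPase subunits. CACGTG alone occurs in 7.15% of all windows and in 14 of 35 lysosomal genes. Shares over all promoters are per window, whereas list counts are per gene with the letters in any of its windows. The 35 lysosomal genes have 38 windows and the 11 ATPase subunits 13, so the units differ. Of the 24 mitosis genes, 20 had a window and 0 held either. A match is a description of letters in a window.

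**Figure D4:**
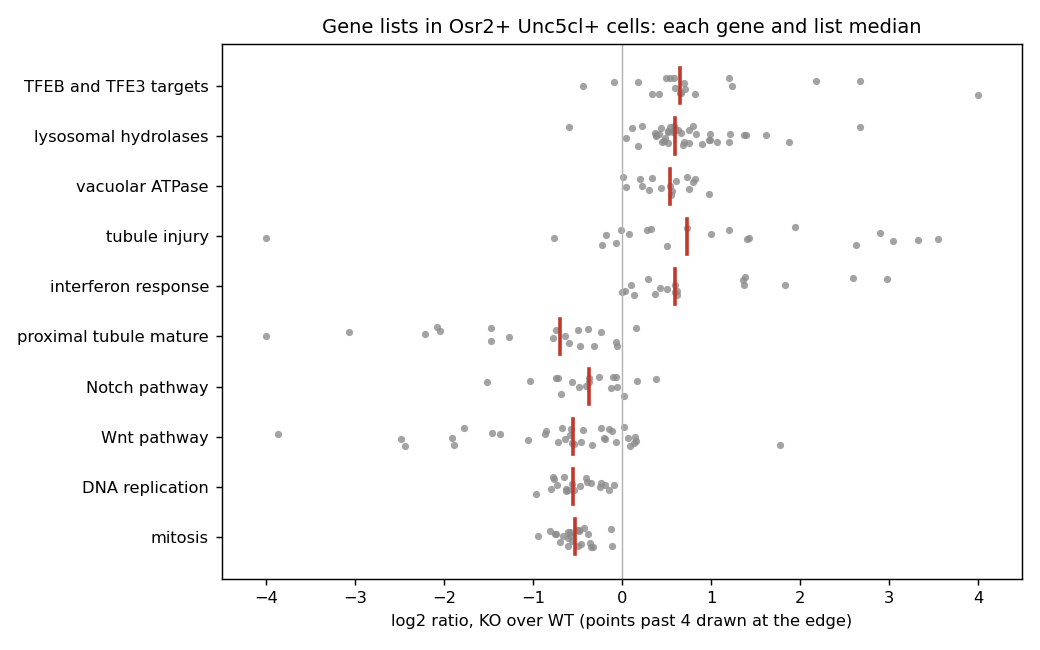
Grey points are genes of 10 lists with at least 10 UMIs in Osr2+ Unc5cl+ cells, placed by the log2 ratio of KO over WT, and red bars are list medians. The TFEB and lysosomal lists centre at 0.65 and 0.60, and the mature proximal, Wnt, DNA replication and mitosis lists lie left of 0.

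Proximal tubule genes of the mature kind were lower in KO. Of 20, 12 were at least 1.5-fold lower and 0 higher, with a median of -0.69 (-1.12 in other proximal tubule cells). Pck1, an enzyme of glucose synthesis, was at 376 and 135 CPM (ratio 0.360), the amino acid transporter Slc7a13 at 194 and 69.6 CPM (0.359), and the glucose transporter Slc5a2 at 25.6 and 5.98 CPM (0.234). Slc34a1 was at 1251 and 831 CPM (0.664). Early proximal genes were closer to equal (median -0.17, 1 of 12 lower, 0 higher), with the transcription factor Hnf4a at 280 and 247 CPM (0.882) and the receptor gene Cubn at 294 and 194 CPM (0.661). Transcription factors of nephron segments had 3 of 31 higher and 8 lower. Irx1, of the middle segments, was at 31.7 and 63.6 CPM (2.01), and Wt1 and Foxc1, of the podocyte end, at 83.7 and 45.9 CPM (0.548) and at 50.9 and 22.9 CPM (0.450).

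Signals of the forming nephron were lower in KO for many genes. Of 34 Wnt pathway genes 14 were at least 1.5-fold lower and 1 higher (median -0.55), the lower ones including the receptor Lgr5 at 18.2 and 6.98 CPM (0.384), and the higher one the inhibitor Sfrp1 with 26 WT and 57 KO UMIs. Of 18 Notch genes 5 were lower and 0 higher (median -0.37). Hes5, a target of Notch, had 65 WT and 14 KO UMIs (0.340), the receptor Notch1 was at 80.6 and 48.0 CPM (0.595) and the ligand Jag1 at 144 and 109 CPM (0.756). The Wnt median went to -0.15 among the cells that met the gate after thinning, and the Notch median to 0.01 when cells were averaged with equal weight.

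Cell cycle genes were lower in KO without exception in sign. All 24 mitosis genes had ratios under 1, 11 of them at least 1.5-fold (median -0.53), with Mki67 at 112 and 66.3 CPM (0.593) and Top2a at 147 and 90.5 CPM (0.616). All 20 DNA replication genes did so too, 9 at least 1.5-fold (median -0.55), with Mcm3 at 28.8 and 16.5 CPM (0.573). Averaging cells with equal weight gave medians of -0.16 and -0.10, and the gate after thinning gave 0.28 for mitosis and -0.27 for DNA replication. The cycling shares above had intervals that overlapped.

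Injury genes gave a mixed picture. Of 21, 11 were at least 1.5-fold higher and 2 lower (median 0.73, against 2.32 in other proximal tubule cells and -0.30 in vesicle and S-shaped body cells). S100a6, a calcium-binding protein, was at 11.9 and 73.5 CPM (6.20) and the keratin Krt19 at 4.85 and 18.7 CPM (3.86), whereas Lcn2, the injury marker NGAL, had 35 WT and 0 KO UMIs, and Sox9 was at 8.50 and 4.98 CPM (0.587). Interferon-responsive genes were at least 1.5-fold higher for 10 of 18 and lower for 0 (median 0.59), with B2m, the light chain of MHC class I, at 44.0 and 157 CPM (3.56), H2-K1 at 31.3 and 81.1 CPM (2.59) and Irf7 with 11 WT and 57 KO UMIs. Both medians shrank among the cells that met the gate after thinning, to -0.06 for injury and 0.14 for interferon genes.

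The families of the marker genes were examined as well. Of 11 netrin and UNC5 family genes 6 were at least 1.5-fold lower and 0 higher (median -1.05, and -0.30 with the gate after thinning). Unc5c, a netrin receptor, was at 101 and 47.3 CPM (0.466), its relative Dcc at 17.3 and 6.76 CPM (0.391), and the ligand Ntn4 at 68.7 and 33.1 CPM (0.482), while Ntn1 was at 91.4 and 85.3 CPM (0.933). Among partners and relatives of Grid1, the AMPA receptor subunit Gria3 was at 142 and 99.9 CPM (0.702), and the cerebellins Cbln1 and Cbln3, which bind delta receptors at synapses, had 0 and 0 WT UMIs. Grid1 itself had a ratio of 1.10 (1.05 to 1.15) and Stxbp5l 0.944 (0.878 to 1.01). None of 20 cilium and cystic kidney disease genes passed 1.5-fold in either direction (0 higher, 0 lower, median -0.19), among them Pkhd1 at 648 and 528 CPM and Pkd2 at 132 and 124 CPM. Respiratory chain genes also had 0 of 28 past 1.5-fold (median 0.00).

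Marker lists of other cell types were summed as well. The stroma list was at 190 and 181 CPM, the endothelial list at 24.0 and 22.7 CPM and the mural list at 50.4 and 20.7 CPM. Erythroid genes were at 184 and 43.2 CPM. The podocyte list summed to 641 CPM in WT and 914 CPM in KO, of which Magi2, a scaffold protein, gave 388 and 764 CPM, but 8 of its 12 genes were at least 1.5-fold lower and 1 higher (median log2 ratio -0.90), with Nphs1, the gene of nephrin, at 86 WT and 8 KO UMIs. The part of free RNA or of mixed droplets in any of the differences was not tested.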

How the data were processed

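The deposited files hold raw UMI counts per gene and barcode, 1 matrix per library, with barcodes already called by the authors. Per the submitters' processing notes the tools were bcl2fastq 2.20.0, Cell Ranger and STAR 2.7.2a with the mm10 (GRCm38) genome. Versions of Cell Ranger, per the file headers, were 7.0.0 for WT and 7.1.0 for KO. How introns were counted is not given in the sources used here. Barcodes with at least 1000 UMIs, 500 genes and at most 20% mitochondrial UMIs were kept, 4187 of 5572 in WT and 5040 of 5991 in KO. The total was 147390790 UMIs in WT and 149679281 in KO. The gene lists, marker rules and members were chosen with earlier results of these data known.

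UMIs were summed over cells of a group and scaled to CPM of nuclear-encoded UMIs. Ratios carry exact conditional 95% intervals. Log2 values had 0.5 UMI added to each sum. List genes needed 10 UMIs, single genes 50 UMIs and 20 CPM in 1 library. Comparison classes exclude the group and barcodes that met more than 1 rule. Named genes were the 12 highest and 12 lowest ratios by the interval bound nearest 1 (a UMI in at least 5% of cells of the higher library; without unnamed, Y-linked, haemoglobin, ribosomal and mitochondrial genes and Xist), the 20 genes highest against the classes, up to 5 list genes per direction past 1.5-fold, any list gene whose role a sentence needs, and a fixed set with Flcn, its partners and Osr1. Xist and Kcnip4 were named after their values were seen. Doublets were not removed. Scrublet in scanpy 1.11.5 called 3 WT and 2 KO barcodes, too few for its threshold to be usable, so the highest scores were left out as an alternative. The interval code was tested on simulated data. Alternatives varied the barcode filter, the gate, the doublet handling, the scaling and the gene minimum. The restriction to cells of the proximal tubule rule and the removal of the top cell of a gene were added after seeing the data. Work used Python 3.11.15, numpy 2.4.6, scipy 1.17.1 and pandas 2.3.3, with edgeR 4.0.16 and DESeq2 1.42.0 for scaling alternatives. Some genes that meet the naming rule are not reported here.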

Additional observations from a re-analysis of the deposited data

Results flagged for a closer look

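Mitosis genes had a median log2 ratio of KO over WT of -0.53 in Osr2+ Unc5cl+ cells and of 0.22 in vesicle and S-shaped body cells, so the 2 groups pointed in opposite directions. The difference between them was not tested, since each condition has 1 library. With the gate applied after thinning to 10000 UMIs the median in Osr2+ Unc5cl+ cells was 0.28.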

How the results depend on the processing

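No paired analysis was possible because each group has 1 library, and for the same reason no replicate could be left out. Shares of the group moved with the gate. In WT they were 5.85% with 1 Osr2 UMI, 3.68% with 4 Osr2 UMIs, 3.46% with 2 Unc5cl UMIs and 1.37% after thinning to 10000 UMIs. In KO they were 1.77% with 2 Unc5cl UMIs, 0.570% after thinning and 2.10% without cells holding 2 UMIs of other cell types. The share was higher in WT in each of these settings. With 20 UMIs and no CPM minimum, 1083 genes were higher and 2267 lower. The gate after thinning left 50 WT and 25 KO cells and gave medians of lysosomal 0.46, Wnt -0.15, DNA replication -0.27, mitosis 0.28, injury -0.059 and interferon 0.14. It also turned the medians of sterol synthesis (-0.13 to 0.28), NF-kB and JNK targets (0.32 to -0.12), immediate early genes (0.13 to -0.24) and vesicle fusion (0.15 to -0.077), took autophagy from 0.14 to 0.016 and the netrin family from -1.05 to -0.30, and turned the log2 ratios of Aoc1 (-3.75), Lgals1 (-1.39), Cldn4 (-2.53) and Tafa2 (0.28). Other named genes moved by over 1.5 times in this setting too, as given beside them. Averaging cells gave DNA replication -0.10, mitosis -0.16, Notch 0.012, Wnt4 -1.85, Lef1 -1.37, Tafa2 -1.12, Dnah12 -2.92 and Kap -7.45. With 4 Osr2 UMIs Cldn4 was 1.85, Kap -5.92, Miox -1.32, Mep1b -1.54 and Sox2ot -1.76, and with 1 Osr2 UMI Cldn4 was 3.75 and Kap -6.09. Crabp1 was -3.63 with at most 10% mitochondrial UMIs, C3 3.93 with 2 Unc5cl UMIs, and Nupr1 4.15, Cldn4 3.67 and Sox2ot -3.03 without cells holding UMIs of other types. Mitosis was -0.34 without cells holding UMIs of other types and -0.29 in cells that met the proximal tubule rule (added after seeing the data), and DNA replication -0.66 with 4 Osr2 UMIs. Scaling by TMM or median of ratios shifted log2 ratios by 0.06. The cause of these shifts was not tested. Medians of TFEB targets, the vacuolar ATPase and mature proximal genes stayed within their main intervals in all 13 settings. The interval of a list median comes from the spread among the genes of the list and does not measure counting error.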

Other observations

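Glycolysis genes in Osr2+ Unc5cl+ cells had a median log2 ratio of 0.24, with 3 of 15 at least 1.5-fold higher in KO and 0 lower. Pfkp, a phosphofructokinase, was at 32.9 and 70.9 CPM (ratio 2.16, 1.91 to 2.43), and Aldoa, an aldolase, at 306 and 546 CPM (1.78), whereas Ldha, lactate dehydrogenase, was at 281 and 276 CPM. NF-kB and JNK targets had 5 of 18 higher and 1 lower (median 0.32, against 1.70 in other proximal tubule cells), but the median was -0.12 among the cells that met the gate after thinning to 10000 UMIs. The list includes Birc3, an inhibitor of cell death, at 11.4 and 22.5 CPM (1.96) and Fos at 737 and 749 CPM (1.02). Components of mTORC1 and its lysosomal anchors had 4 of 22 higher and 0 lower (median 0.11), among them Lamtor1 at 97.7 and 159 CPM (1.62), while Mtor was at 67.1 and 57.8 CPM (0.861).

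Kcnip4, a potassium channel interacting protein, was at 78.7 CPM in WT and 421 CPM in KO (5.35-fold), with 17.2% of its WT UMIs held by 1 cell. Its ratio was 0.764 in the least mature of the 4 bins, where the interval of 0.569 to 1.02 held 1, and 7.45, 20.3 and 4.57 in the next 3, the last with 2 KO cells. H19 was lower in KO in every bin, with ratios of 0.475, 0.114, 0.0861 and 0.0130.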
